A study of Mus musculus with 20 samples.

Results

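The miR-29 family was examined in mouse hearts through 5 mature microRNAs (miRNAs): miR-29a-3p, miR-29b-3p and miR-29c-3p, with the opposite-arm products miR-29a-5p and miR-29c-5p. They were taken by name from the 1545 entries of a small RNA sequencing table, and all 5 passed the filter on low values that 360 entries passed. The hearts came from C57BL/6J mice in 4 groups: myocardial infarction with CIH (MI+CIH, n = 7), myocardial infarction alone (MI, n = 4), CIH alone (n = 4) and sham (n = 5). CIH stands unexplained in the labels and was taken to mean chronic intermittent hypoxia, a model of sleep apnoea in which inhaled oxygen drops again and again. The age and sex of the mice, the length of each exposure and the part of the heart sampled are not given in the sources used here. Nor do the labels say whether each library came from 1 animal, so p-values measure only the spread between these libraries.

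miRNAs are cut as a duplex from a hairpin precursor, and each arm (5p or 3p) can be loaded into a silencing complex that represses messenger RNAs paired with its seed, the bases near its 5′ end. The 3p arms of miR-29 are known for repressing collagens, fibrillin and elastin, the scaffold proteins of scar tissue. In the heart, miR-29 is known to be enriched in fibroblasts over cardiomyocytes, and its loss in infarcted mouse hearts has been tied to collagen deposition. The 5p arms are regarded as the minor strand, and little is known of their targets.

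The mature sequences show why the 3p arms form a family and the 5p arms do not, and why miR-29a-3p and miR-29c-3p are hard to tell apart. They are from RefSeq on GRCm38.p6, written 5′ to 3′, with the seed (bases 2 to 8) in capitals.
miR-29a-3p: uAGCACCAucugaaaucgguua
miR-29b-3p: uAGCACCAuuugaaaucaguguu
miR-29c-3p: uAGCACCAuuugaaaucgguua
miR-29a-5p: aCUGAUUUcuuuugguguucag
miR-29c-5p: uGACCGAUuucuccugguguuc

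The seed AGCACCA was carried by 3 of 1679 mature mouse miRNAs in the RefSeq table, and these were the 3 family members above. Each 5p seed was carried by 1 miRNA, so the 5p arms share no seed with each other or with the 3p arms. Between miR-29a-3p and miR-29c-3p the only difference was C10U, counted from the 5′ end. miR-29b-3p differed from miR-29c-3p by G18A, U21G and A22U and was 23 bases long, against 22 for the others. How the authors' counting assigned reads that end or err near position 10 is not given in the sources used here, so a share of miR-29c-3p reads may have been counted as miR-29a-3p or the reverse.

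The family came from 4 hairpins in 2 clusters on GRCm38. On chromosome 6, minus strand, Mir29a (31062660 to 31062747) and Mir29b-1 (31063023 to 31063093) lay 275 bases apart. On chromosome 1, plus strand, Mir29b-2 (195037040 to 195037120) and Mir29c (195037547 to 195037634) lay 426 bases apart, inside an exon of the non-coding transcript A330023F24Rik and opposite an exon of Cd46, a complement regulator, on the other strand (GENCODE M21). miR-29a-3p was at 31062673 to 31062694 on chromosome 6 and miR-29c-3p at 195037600 to 195037621 on chromosome 1. miR-29b-3p has the same sequence at 195037091 to 195037113 on chromosome 1 and 31063025 to 31063047 on chromosome 6, so its reads cannot be assigned to a cluster.

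The libraries held 1991323 to 18138415 reads each, and values are given as RPM, the reads of a miRNA per 1000000 reads of its library. A single read was worth 0.0551 to 0.502 RPM, and the 5 members together took 306 to 37895 reads, or 0.0154% to 0.220% of a library. The libraries fell into 3 sets when clustered on the other 355 tested entries: MI+CIH 1 and MI 2 joined every CIH and sham library (set A, 11 libraries), MI+CIH libraries 2 to 5 joined MI libraries 1 and 3 (set B, 6), and the other infarcted hearts, MI+CIH 6, MI+CIH 7 and MI 4, made up set C (3). Pearson's r between libraries was 0.907 to 0.994 within sets and 0.714 to 0.933 between sets. The labels name no batch that matches the sets, and since sham and CIH hearts are in set A alone, set and infarction cannot be told apart beyond the 2 infarcted libraries of set A. Set B held the shallowest libraries (1991323 to 9175110 reads, against 5700599 to 18014081 in set A). The muscle miRNA miR-1a-3p, a defining heart marker, was at no less than 69203 RPM in any library. In bulk tissue, fewer cells of a type and less RNA per cell cannot be told apart.

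miR-29a-3p was the family's most abundant product, with a mean of 582 RPM over 20 libraries (rank 62 of 1545 entries). It ranged over 101 to 2066 RPM in MI+CIH hearts, with a median of 507 RPM. MI hearts 1 to 4 had 442, 266, 174 and 1980 RPM, and CIH hearts 1 to 4 had 296, 309, 115 and 342 RPM. Sham hearts 1 to 5 had 324, 309, 469, 368 and 383 RPM. The sham and CIH hearts kept within a narrow band apart from CIH 3, while infarcted hearts lay both below and above it. The 3 libraries of set C stood together at 1933 to 2066 RPM, each more than any of the other 17. How many other entries part set C in this way was not counted. On the log2 scale miR-29a-3p differed from set A by 2.70 in set C, rank 331 from the lowest of 360 entries (median 0.81).

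miR-29b-3p, the product of both clusters, averaged 19.5 RPM (rank 219). Its level in MI+CIH hearts ran from 4.02 to 74.2 RPM with a median of 7.48 RPM. MI hearts 1 to 4 had 7.19, 9.53, 3.84 and 40.4 RPM, CIH hearts 11.6, 13.02, 6.86 and 15.6 RPM, and sham hearts 1 to 5 had 24.2, 18.8, 23.3, 19.998 and 21.97 RPM. Sham hearts were the most even group, and infarcted hearts lay on both sides of them: all 6 libraries of set B were below and all 3 of set C above every sham value. How many other entries part these sets from sham was not counted. On the log2 scale miR-29b-3p differed from set A by -1.39 in set B and 1.63 in set C. The medians over 360 entries were 1.92 and 0.81.

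miR-29c-3p, the chromosome 1 member, averaged 13.9 RPM (rank 243). MI+CIH hearts had from 0.502 RPM, which was 1 read in MI+CIH 4 (95% Poisson interval 0.0127 to 2.80 RPM, covering counting error only), to 17.7 RPM, with a median of 4.90 RPM. MI hearts 1 to 4 had 7.19, 15.6, 2.07 and 16.0 RPM, and CIH hearts had 18.3, 16.2, 5.22 and 21.1 RPM. Sham hearts 1 to 5 had 24.1, 19.8, 32.6, 17.0 and 23.7 RPM. No MI heart reached the lowest sham value, and of the MI+CIH hearts only MI+CIH 7 did. Unlike the other 3p arms, miR-29c-3p was not above sham levels in set C.

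miR-29c-5p averaged 37.1 RPM (rank 184), more than miR-29c-3p from the same hairpin. It ran from 22.5 to 70.7 RPM in MI+CIH hearts with a median of 45.0 RPM, and was 54.9, 19.0, 41.3 and 44.9 RPM in MI hearts 1 to 4. CIH hearts had 16.8, 29.95, 30.7 and 26.2 RPM, and sham hearts 18.5, 49.4, 37.0, 31.9 and 27.98 RPM. The groups overlapped throughout. miR-29a-5p was the scarcest member, with a mean of 5.40 RPM (rank 314), and reached 5 RPM in 9 libraries. Its values were 1.51 to 10.9 RPM in MI+CIH hearts (median 3.57), 1.96, 2.83, 1.48 and 7.39 RPM in MI hearts, 2.93, 6.09, 3.58 and 7.51 RPM in CIH hearts and 3.01, 10.8, 10.7, 7.19 and 6.59 RPM in sham hearts.

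Group medians of miR-29a-3p were 507 RPM in MI+CIH, 354 RPM in MI, 303 RPM in CIH and 368 RPM in sham hearts, so the order from high to low was MI+CIH, sham, MI and CIH, and each neighbour in it overlapped the next. Those of miR-29b-3p were 7.48 RPM in MI+CIH, 8.36 RPM in MI, 12.3 RPM in CIH and 21.97 RPM in sham hearts, ascending in that order, and of these neighbours only CIH and sham did not overlap. miR-29c-3p ascended in the same order, from 4.90 RPM in MI+CIH through 11.4 RPM in MI and 17.2 RPM in CIH to 23.7 RPM in sham hearts, with overlap between each pair of neighbours. The 5p arms had overlapping groups throughout, with medians of 3.57, 2.40, 4.83 and 7.19 RPM for miR-29a-5p and of 45.0, 43.1, 28.1 and 31.9 RPM for miR-29c-5p in MI+CIH, MI, CIH and sham hearts. All members were 22 or 23 bases long, so no length correction was made between them. Whether the library preparation captured each sequence equally was not tested.

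**Figure D1:**
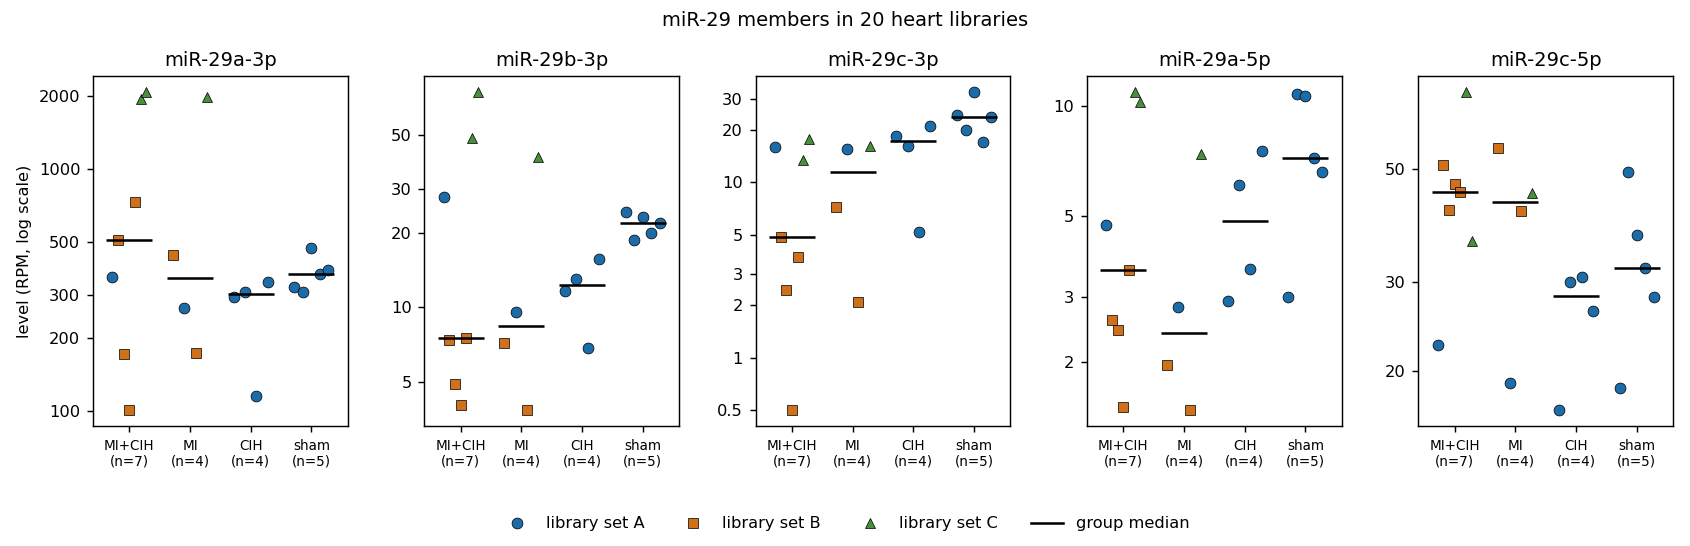
Level of each miR-29 member (RPM, log scale) in the 20 heart libraries by group, with the group median as a bar and the library set as colour and shape. The 3 libraries of set C sit highest for miR-29a-3p and miR-29b-3p, and the 6 of set B hold 6 of the 7 lowest values of miR-29c-3p.

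The first comparison asked whether CIH added to infarction changed the family. Between MI+CIH and MI hearts none of the 5 members passed the test (limma on log2(RPM + 1), Benjamini-Hochberg adjusted over 360 entries, threshold 0.05), where 0% of all 360 entries passed. No member had an unadjusted p under 0.05, against 17 of all entries, and edgeR and DESeq2 also called 0 entries. The log2 changes were 0.44 for miR-29b-3p (SE 0.69), 0.42 for miR-29a-5p (SE 0.50), 0.19 for miR-29a-3p (SE 0.73), 0.19 for miR-29c-5p (SE 0.42) and -0.44 for miR-29c-3p (SE 0.64), with adjusted p of 0.895 to 0.926 in limma. The 95% intervals were wide: -1.77 to 0.90 for miR-29c-3p and -1.34 to 1.71 for miR-29a-3p, so a change of 1 log2 unit downward in miR-29c-3p, and in either direction in miR-29a-3p, lies inside them. The median of all 360 entries was 0.41, and relative to it miR-29c-3p was at -0.85 and the other 4 members were at -0.23 to 0.03.

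Within set B, where 4 MI+CIH and 2 MI libraries allow a comparison at like profiles, every member overlapped. miR-29c-3p was at 0.502 to 4.90 RPM in the MI+CIH libraries and at 2.07 and 7.19 RPM in the MI libraries. miR-29a-3p was at 101 to 728 RPM in MI+CIH and at 174 and 442 RPM in MI. Neither showed a difference between the groups beyond the spread inside each.

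Infarction alone was set against sham next. None of the 5 members passed the limma test, where 0% of 360 entries passed; 101 entries and 0 members had an unadjusted p under 0.05. edgeR called 0 entries and DESeq2 39, with 0 members among them. All 4 MI hearts had less miR-29c-3p than any sham heart (2.07 to 16.0 RPM against 17.0 to 32.6 RPM), a separation downward that 6 of 360 entries showed (1.67%). The log2 change of miR-29c-3p was -1.38 (SE 0.69, adjusted p 0.183, limma), but -0.37 with the library set as a term (adjusted p 0.996, limma). In set A alone, where MI 2 was the only MI heart, it was -0.53. With the set as a term, infarcted and sham hearts are compared only through MI 2 and MI+CIH 1, the infarcted libraries of set A. The log2 change of miR-29a-5p was -1.04 (SE 0.53, adjusted p 0.192, limma). miR-29b-3p was at -0.98 (SE 0.74, adjusted p 0.308), with 3 MI hearts below every sham heart and MI 4 above them all. miR-29a-3p was at 0.29 (SE 0.79) and miR-29c-5p at 0.24 (SE 0.45), against a median of 0.94 over all entries. Without sham 1 and MI 2, left out together because an earlier analysis of these data doubted their labels, limma called 114 entries and again 0 members.

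MI+CIH against sham was the one comparison of 6 in which a member changed by this test. miR-29c-3p fell in MI+CIH hearts, averaging 8.39 ± 7.09 RPM (SD, n = 7) against 23.5 ± 5.91 RPM in sham hearts (SD, n = 5). Its log2 change was -1.82 (SE 0.60, 95% interval -3.06 to -0.57, adjusted p 0.0172, limma), and 6 of 7 MI+CIH hearts were below every sham heart. In this comparison 56.7% of the 360 entries passed and 4.44% passed downward (16 entries). On the recovered reads edgeR called 85 entries and 1 member, and DESeq2 146 entries and 3 members. Against the median of all entries, 1.39, miR-29c-3p was at -3.21. The lower level held under both other scalings, at -2.91 by median of ratios and -3.05 by TMM.

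The library sets moved with this result. miR-29c-3p was at 0.502 to 7.19 RPM in set B, 13.5 to 17.7 RPM in set C and 5.22 to 32.6 RPM in set A, and its difference of set B from set A, -2.26, was the 7th lowest of 360 entries (median 1.92). With the set as a term, the change was -0.66 (SE 0.56, adjusted p 0.694, limma) and 0 of 360 entries were called, with 21 at an unadjusted p under 0.05. With no filter on low values the adjusted p was 0.0567. In set A the single MI+CIH heart had 15.9 RPM, just below the lowest of 5 sham hearts at 17.0 RPM. Without set C, a choice made after seeing the data, the change was -2.33 (adjusted p 0.00325).

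The other members did not pass. miR-29a-5p was at -0.62 (SE 0.47, adjusted p 0.250, limma), miR-29b-3p at -0.53 (SE 0.64, adjusted p 0.491), miR-29c-5p at 0.43 (SE 0.39, adjusted p 0.344) and miR-29a-3p at 0.48 (SE 0.69, adjusted p 0.565). Relative to the median of all entries these were -0.91 to -2.02. Which members passed depended on set C: without its 3 libraries limma called 3 members, adding miR-29b-3p at -1.32 (adjusted p 0.0148) and miR-29a-5p at -1.08 (adjusted p 0.0227), where 66.1% of entries passed. miR-29a-3p and miR-29c-5p, above sham as shares of a library, were below it under median-of-ratios and TMM scaling, with -0.91 and -0.93 by median of ratios. miR-29c-5p passed downward by TMM (-1.14, adjusted p 0.0326, limma) and with DESeq2 (-0.94, adjusted p 0.0400). miR-29a-5p passed downward by median of ratios (-1.68, adjusted p 0.0255), TMM (-1.82, adjusted p 0.0210) and with DESeq2 (-1.66, adjusted p 0.0378). Of all 360 entries, 112 were called by median of ratios and 114 by TMM.

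**Figure D2:**
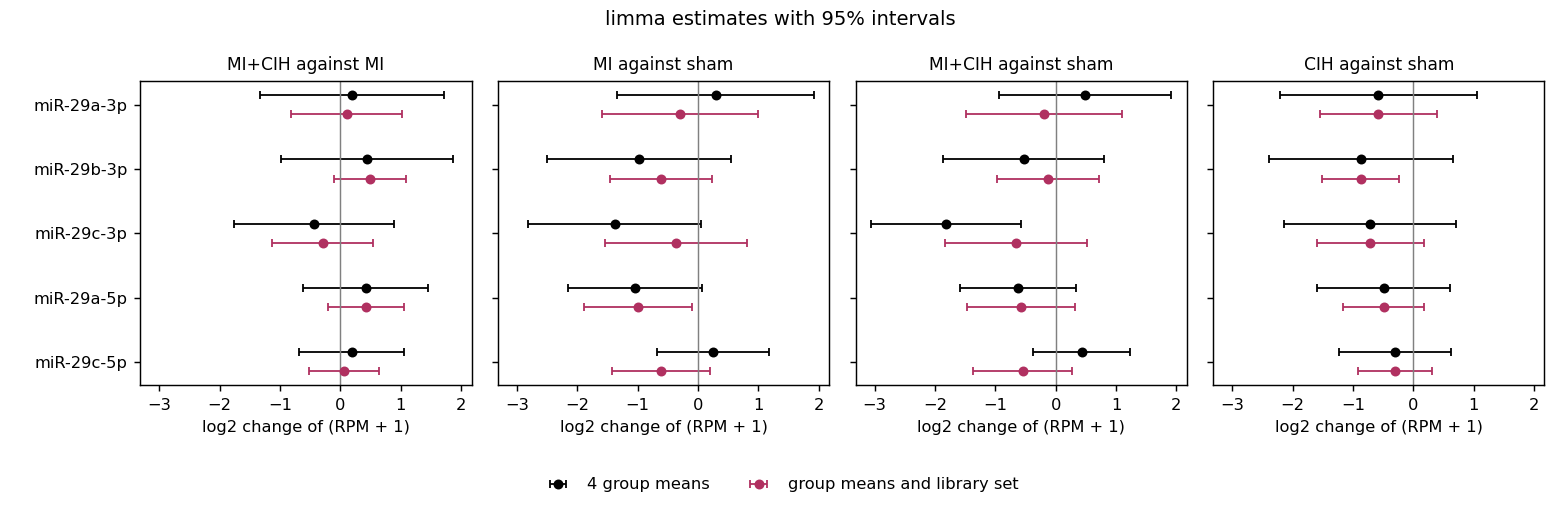
Change of each member on the log2(RPM + 1) scale in 4 comparisons, with 95% intervals from limma, from the fit of 4 group means (black) and with the library set added (red). The interval of miR-29c-3p in MI+CIH against sham, -3.06 to -0.57, is the one black interval that leaves out 0, and with the set added its estimate is -0.66.

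CIH alone was set against sham within a single library set. None of the 5 members passed, where 0% of 360 entries passed in limma and 1 had an unadjusted p under 0.05; edgeR called 0 entries and DESeq2 1, with 0 members among them. Every CIH heart had less miR-29b-3p than any sham heart (6.86 to 15.6 RPM against 18.8 to 24.2 RPM), a separation downward that 10 of 360 entries showed (2.78%). The means were 11.8 ± 3.67 RPM in CIH hearts (SD, n = 4) and 21.6 ± 2.25 RPM in sham hearts (SD, n = 5). The log2 change was -0.87 (SE 0.74, adjusted p 0.998, limma) with the spread taken over all 4 groups. With set A alone the standard error was 0.26 and the adjusted p 0.509. The other 4 members were at -0.71 (miR-29c-3p) to -0.30 (miR-29c-5p), all with an adjusted p of 0.998, against a median of -0.21 over all entries.

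MI+CIH against CIH and the interaction, which asks whether CIH acted differently in infarcted hearts, called 0 members. For MI+CIH against CIH, where 56.9% of entries passed and 2.22% passed downward, the log2 changes ran from -1.11 (miR-29c-3p, adjusted p 0.139, limma) to 1.06 (miR-29a-3p, adjusted p 0.209). miR-29c-3p passed there when scaled by median of ratios (-2.44, adjusted p 0.0272) or TMM (-2.56, adjusted p 0.0248), with DESeq2 (-1.98, adjusted p 0.0487), under the replicate block (-1.62, adjusted p 0.0437) and without set C (-1.62, adjusted p 0.0290, where 68.1% of entries passed). Of all 360 entries these fits called 97 by median of ratios, 90 by TMM, 133 with DESeq2 and 211 under the block. With the library set as a term miR-29c-3p was at 0.052, and in set A alone at 0.21, and neither fit called any entry. In the interaction, where 0% of entries passed in limma, 14 had an unadjusted p under 0.05 and edgeR and DESeq2 called 0, estimates ran from 0.27 for miR-29c-3p to 1.32 for miR-29b-3p (SE 1.01, adjusted p 0.880). No difference of the CIH effect between infarcted and uninfarcted hearts was detectable at this spread.

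Marker miRNAs of other cell types differed between the same groups and sets. The summed level of 3 fibroblast markers (miR-199a-3p, miR-199a-5p and miR-214-3p, none at 0) was 1263 to 6822 RPM in MI+CIH, 363 to 3935 RPM in MI, 187 to 423 RPM in CIH and 386 to 1844 RPM in sham hearts. All 3 rose in MI+CIH against sham, where 56.7% of all 360 entries passed, 188 of them upward and 16 downward. The median log2 change of all entries there was 1.39. The 2 endothelial markers (miR-126a-3p and miR-126a-5p, none at 0) summed to 24768 to 50262 RPM in set C, 3162 to 7513 RPM in set B and 5976 to 10970 RPM in set A, of which miR-126a-3p held the most. The other endothelial marker, miR-126a-5p, ran the other way, with means of 413 RPM in set C, 566 RPM in set B and 1377 RPM in set A. The 4 cardiomyocyte markers summed to 88403 to 269434 RPM in MI+CIH and 193358 to 278561 RPM in sham hearts, with none at 0. Inside this sum the members parted in MI+CIH against sham: miR-133a-3p rose by 1.60 (adjusted p 0.0150, limma), while miR-1a-3p (-0.82, adjusted p 0.0313), miR-208a-3p (-1.82, adjusted p 0.0265) and miR-499-5p (-1.84, adjusted p 0.00272) fell. Set B, where miR-29c-3p was lowest, had the highest sums of 5 leukocyte markers, at 1209 to 1930 RPM. These sums were 325 to 640 RPM in set C and 207 to 652 RPM in set A, and 1 of the 5 was at 0 in some library. miR-150-5p held the most of the set B sum, with means of 1148 RPM in set B, 93.4 RPM in set C and 96.1 RPM in set A. Of the 5, miR-142a-3p and miR-142a-5p ran the other way and were lowest in set B. Their means were 2.21 and 106 RPM in set B, 61.4 and 159 RPM in set C and 12.6 and 262 RPM in set A. The 2 smooth muscle and mural markers, none at 0, had their lowest sums in set C, at 25883 to 41639 RPM. Their sums were 130564 to 272741 RPM in set B and 134524 to 261394 RPM in set A, of which miR-143-3p held the most. The other marker, miR-145a-5p, was lowest in set A, with means of 874 RPM there, 1901 RPM in set C and 3601 RPM in set B. The 2 erythrocyte markers summed to 773 to 2153 RPM in set C, 97.4 to 5680 RPM in set B and 322 to 3105 RPM in set A. miR-451a held the most, with means of 2718 RPM in set B, 1508 RPM in set C and 1204 RPM in set A. miR-144-3p was lowest in set B, with means of 1.67 RPM there, 12.8 RPM in set C and 13.04 RPM in set A. In MI+CIH against sham miR-144-3p fell (-1.67, adjusted p 0.0415, limma), while miR-451a was at 1.24 and did not pass (adjusted p 0.0817). The part of these differences in the miR-29 results was not tested.

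The makeup of the seed family differed between set A and the other sets. As the 3 members share a seed and differ in abundance, their summed level was taken, with the share of each. The sum was 105 to 2158 RPM in MI+CIH hearts (median 519), 180 to 2037 RPM in MI hearts (median 374), 127 to 378 RPM in CIH hearts (median 332) and 348 to 525 RPM in sham hearts (median 405). These ranges overlapped, and miR-29a-3p made up 87.0% to 98.5% of the sum in every library.

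The share of miR-29c-3p was 0.476% to 3.98% in MI+CIH hearts, 0.788% to 5.36% in MI hearts, 4.12% to 5.62% in CIH hearts and 4.203% to 6.48% in sham hearts. Both high values among infarcted hearts were the set A libraries, MI+CIH 1 at 3.98% and MI 2 at 5.36%. Across the sets it was 0.476% to 1.58% in set B, 0.675% to 0.822% in set C and 3.98% to 6.48% in set A, with no overlap between set A and the other sets. The sets were drawn from differences in the other entries of these same libraries. How many other entries or ratios also part set A without overlap was not counted. Sets B and C had like shares of miR-29c-3p although their levels of miR-29a-3p lay far apart, at 101 to 728 RPM in set B and 1933 to 2066 RPM in set C. As the 2 sequences differ only by C10U, reads of one may have been counted as the other. The part of such reads in these shares, and in the ratios below, was not tested.

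Set against miR-29c-3p, miR-29a-3p was 61.4 to 201 times as abundant in set B, 116 to 144 times in set C and 13.4 to 22.4 times in set A. miR-29b-3p held 1.01% to 3.81% of the sum in set B, 1.98% to 3.44% in set C and 3.27% to 6.99% in set A, where the ranges overlapped. The highest ratio, 201, rests on 1 read of miR-29c-3p in MI+CIH 4.

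**Figure D3:**
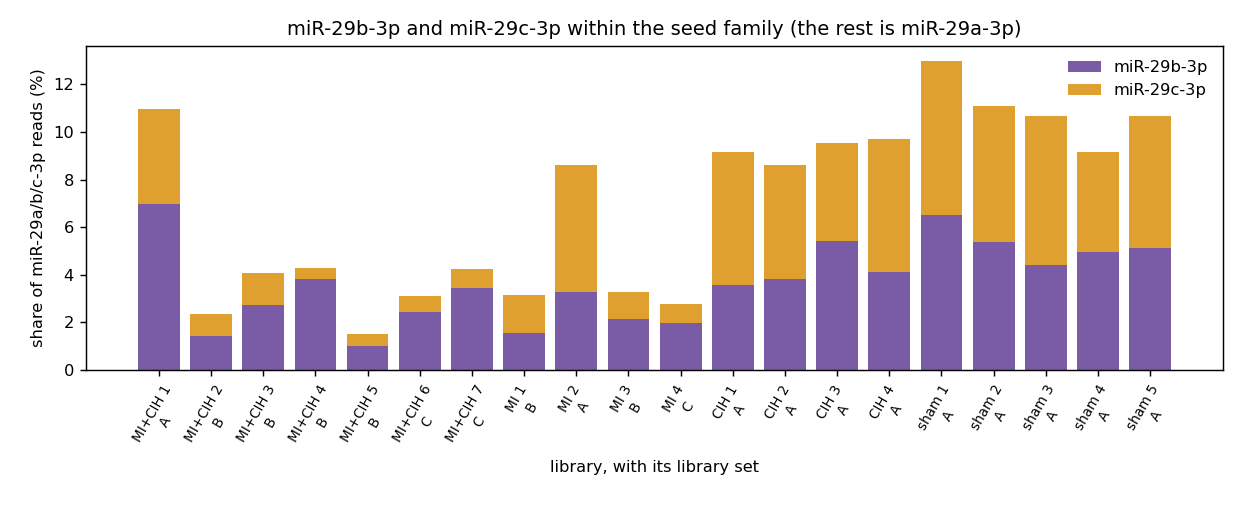
Share of miR-29b-3p and miR-29c-3p among the reads of the 3 seed-sharing 3p arms (percent, stacked) in each library, with its library set under the name; the remainder is miR-29a-3p. Libraries of sets B and C have 0.476% to 1.58% miR-29c-3p, against 3.98% to 6.48% in set A, which includes MI+CIH 1 and MI 2.

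The arms of the miR-29c hairpin were compared because they come from one precursor. The 3p arm made up 1.06% to 41.4% of the reads of both arms in MI+CIH hearts (median 8.77%) and 4.76%, 11.6%, 26.3% and 45.1% in MI hearts. It made up 14.6% to 52.2% in CIH hearts and 28.7% to 56.5% in sham hearts. The lowest share, in MI+CIH 4, rests on 1 read of the 3p arm and 93 of the 5p arm (95% Wilson interval 0.188% to 5.78%, covering counting error only). Tested over 86 hairpins as log2(3p + 1) minus log2(5p + 1), the ratio fell in MI+CIH against sham by 2.25 (SE 0.72, adjusted p 0.0359, limma), where 22.1% of hairpins passed and 15.1% passed downward. The value depends on the RPM added to each arm, and was -2.40 at 0.5 RPM and -1.64 at 5 RPM, passing at both. The call was lost, at adjusted p of 0.0580 to 0.0840, when MI+CIH 2, 3, 4 or 5 or sham 1, 3, 4 or 5 was left out, with values of -2.36 to -1.86. With the set as a term the ratio was at -0.11 (adjusted p 0.998).

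By set, the 3p to 5p ratio of miR-29c was 0.0108 to 0.131 in set B, 0.190 to 0.492 in set C and 0.170 to 1.30 in set A, where CIH 3 was lowest. The difference of set B from set A, -3.03, was the 5th lowest of 86 hairpins (median 0.27). The miR-29a hairpin did not follow: its 3p arm was 67.0 to 225 times its 5p arm in set B, 177 to 268 times in set C and 28.7 to 107 times in set A. Its arm ratio did not pass in MI+CIH against sham, at 1.10 (SE 0.48, adjusted p 0.107, limma), or in MI against sham, at 1.34 (SE 0.55, adjusted p 0.150). In MI against sham the miR-29c ratio was at -1.63 (SE 0.83, adjusted p 0.275), and in MI+CIH against MI the ratios were at -0.62 for miR-29c and -0.23 for miR-29a, both with adjusted p 0.977. In CIH against sham they were at -0.41 and -0.09, both with adjusted p 0.999. In these 3 comparisons 0% of 86 hairpins passed, with 18 at an unadjusted p under 0.05 in MI against sham and 0 in each of the others. Neither hairpin passed in MI+CIH against CIH, where 12.8% did, at -1.84 for miR-29c (SE 0.77, adjusted p 0.116, limma) and 1.19 for miR-29a (SE 0.51, adjusted p 0.120), or in the interaction, at -0.22 and -0.14.

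**Figure D4:**
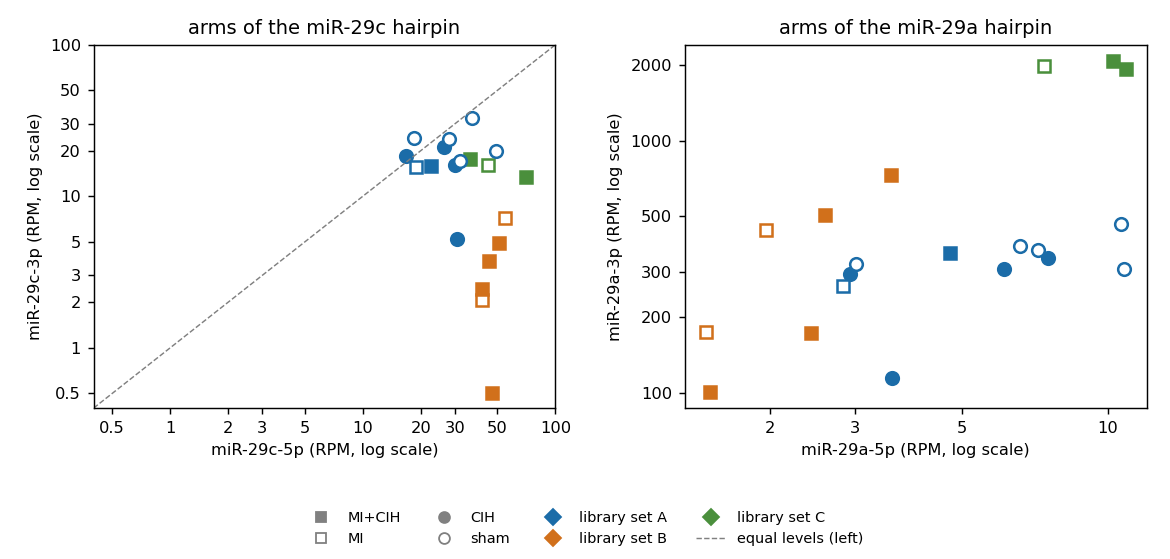
Levels of the 3p arm (vertical) against the 5p arm (horizontal) of the miR-29c hairpin (left) and the miR-29a hairpin (right), in RPM on log scales, 1 point per library, with group as shape and fill and library set as colour. In the left panel the 6 libraries of set B lie lowest beneath the dashed line of equal levels, at 3p to 5p ratios of 0.0108 to 0.131, and 2 libraries, sham 1 and CIH 1, lie above it.

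Members were also compared by how they varied across libraries, within set A (11 libraries) and set B (6 libraries) separately, as a description of points that share depth and library makeup. miR-29a-3p and miR-29c-3p, from different chromosomes, had a Pearson's r of 0.935 in set A (Spearman's rho 0.645) and 0.842 in set B (rho 0.714). miR-29a-3p and miR-29b-3p had r of 0.812 in set A and 0.942 in set B. Over the same libraries the arms of the miR-29c hairpin had r of 0.027 in set A and 0.579 in set B, while the 5p arms of miR-29a and miR-29c had 0.866 in set A and 0.055 in set B.

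The tested entries most like each member in set A were named by a rule of the 3 highest Pearson correlations among 355 others. For miR-29c-3p they were miR-101a-3p (0.887 in set A, 0.882 in set B), miR-107-3p (0.868 and 0.895) and miR-101b-3p (0.856 and 0.891). For miR-29b-3p they were miR-106b-5p (0.913 and 0.987), miR-101b-3p (0.886 and 0.893) and miR-144-3p (0.877 and 0.280). For miR-29a-3p they were miR-374b-5p, miR-374c-3p (which come from opposite strands of one locus, so their reads may not be separable) and miR-107-3p (0.920 to 0.923 in set A, 0.868 to 0.987 in set B). By Pearson's r the likeness of the 3p arms held in set B for all but miR-144-3p. In set A, Spearman's rho with miR-29c-3p was lower, at 0.636 for miR-101a-3p, 0.691 for miR-107-3p and 0.682 for miR-101b-3p. For the entries closest to miR-29a-3p and miR-29b-3p it was 0.782 to 0.964. CIH 3 was the lowest library of set A for miR-29a-3p (115 RPM), miR-29b-3p (6.86 RPM) and miR-29c-3p (5.22 RPM), and r without it was not computed. For the 5p arms, miR-30c-5p was closest to miR-29a-5p (0.814 and 0.811), followed by miR-664-3p (0.750 and -0.488) and miR-145a-5p (0.740 and 0.032), which were not alike in set B. The 3 closest to miR-29c-5p in set A, miR-664-3p, miR-155-5p and miR-7225-5p, were at -0.712 to -0.498 in set B.

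Other miRNAs known to repress matrix genes or their inducers were set beside the family. Of 16 on this list 14 were tested, and in MI+CIH against sham 4 rose and 3 fell, with a median log2 change of 0.33, against 1.39 over all entries, of which 56.7% passed. Those that fell were miR-101a-3p, at -2.97 (SE 0.72, adjusted p 0.00311, limma), miR-101b-3p at -2.03 (adjusted p 0.0121) and miR-30e-5p at -1.71 (adjusted p 0.0323). Both miR-101 members are known to repress TGF-beta signalling and Fos in rat cardiac fibroblasts, and miR-30 members the matrix inducer CTGF. Those that rose were let-7i-5p at 2.63, the muscle miRNA miR-133a-3p at 1.60, miR-26b-5p at 1.12 and miR-24-3p at 1.07. miR-30d-5p and miR-30a-5p, the most abundant of the list, were at 0.42 and -0.14 and did not pass.

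Of 10 miRNAs known to promote fibrosis 9 were tested, and in the same comparison 5 rose and 1 fell, with a median of 1.47, against 1.39 over all entries, of which 56.7% passed. Those that rose were miR-328-3p at 2.74, miR-155-5p at 2.72, miR-125b-5p at 2.67, miR-199a-5p at 2.13 and miR-34a-5p at 1.47, and the one that fell was the cardiomyocyte miRNA miR-208a-3p at -1.82. miR-21a-5p, the most abundant of the list and known to promote survival of cardiac fibroblasts, was at 0.12 (SE 0.55, adjusted p 0.863, limma). In MI+CIH against CIH, 5 of the 14 matrix-repressing miRNAs rose and 1 fell, and 5 of the 9 fibrosis-promoting miRNAs rose and 0 fell. The list medians there were 0.64 and 2.06, against 1.51 over all entries, of which 56.9% passed. In MI+CIH against MI, MI against sham, CIH against sham and the interaction, 0 members of either list passed in limma, where 0% of all 360 entries passed. With the library set as a term 0 list members passed in any of the 6 comparisons. That fit called 2 of 360 entries in MI+CIH against MI and 0% in each other comparison.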

How the data were processed

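Per the labels' protocols, hearts were frozen, Trizol RNA was used, and NEBNext small RNA libraries were prepared (3 µg of input). The submitters' processing notes list mm10, Bowtie and DESeq 1.8.3 without roles; counting rules are not given in the sources used here. The authors deposited values called TPM, but they are RPM: every library adds up to 1000000, and 100% of values are multiples of what 1 read is worth (within 0.05 reads), which gave back the reads. Depth was 1991323 to 18138415 reads, and a count of 0 allows up to 3 reads, or 0.165 to 1.51 RPM, for counting error alone.

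Entries at 5 RPM or more in 4 or more libraries (360, at least 99.9% of reads) were tested with limma 3.58.1 in R 4.3.3 (trend, two-sided) on log2(RPM + 1), with 4 group means over 20 libraries and Benjamini-Hochberg adjustment over all entries. Such changes understate those of scarce miRNAs. Arm ratios were tested likewise over 86 hairpins with both arms past the filter. Read tests were edgeR 4.0.16 and DESeq2 1.42.0. "Rose" and "fell" are used of what passed 0.05. Fits were run on simulated data that held no library sets, so this cannot show how they behave with the sets of these libraries. Library sets came from average linkage on 1 minus Pearson's r without miR-29 products, and arm ratios of 84 other hairpins gave the same sets for 20 of 20 libraries. Of 43 same-group pairs none agreed within sampling noise. Alternatives were pseudocounts of 0.5 and 5 RPM, no filter, 2 scalings, a set term, single sets, a replicate block, leaving out libraries, and, added after seeing the data, leaving out set C. The members and lists were chosen with earlier results of these data known. Named miRNAs are the 5 members, the 3 entries most like each in set A, and list members past the threshold or most abundant.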

Additional observations from a re-analysis of the deposited data

Results flagged for a closer look

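MI 4 stood far from the other MI hearts for 2 of the members. miR-29a-3p was at 1980 RPM there, against 174 to 442 RPM in the other 3, and miR-29b-3p at 40.4 RPM, against 3.84 to 9.53 RPM. These were 2 of 28 tests by Dixon's criterion at 95%, run for each member and arm ratio in each group of 4 to 7 libraries. Chance meets this criterion in about 1 of 20. MI 4 was in set C with MI+CIH 6 and 7, which had 1933 and 2066 RPM of miR-29a-3p and 48.6 and 74.2 RPM of miR-29b-3p.

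Opposite-arm products of the miR-29b hairpins were in the table but below the filter on low values. miR-29b-1-5p, from chromosome 6, had a median of 2.46 RPM in MI+CIH hearts and 2.14 RPM in MI hearts, both above the highest sham value of 0.877 RPM. MI+CIH hearts had 0.50 RPM (MI+CIH 1) to 11.0 RPM (MI+CIH 4), MI hearts 0.207 RPM (MI 2) to 3.54 RPM, CIH hearts 0.417 to 0.967 RPM and sham hearts 0 to 0.877 RPM, on 0 to 37 reads a library. The 2 infarcted hearts of set A were the lowest of their groups, and the highest sham value rested on 5 reads. How many other entries have MI+CIH and MI medians above every sham value was not counted. Over the 360 tested entries the median log2 change was 1.39 in MI+CIH against sham and 0.94 in MI against sham. miR-29b-2-5p, from chromosome 1, was at 1.22 to 7.19 RPM in MI+CIH, 1.66 to 5.89 RPM in MI, 0.140 to 2.25 RPM in CIH and 0.913 to 3.10 RPM in sham hearts, which overlapped.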

How the results depend on the processing

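Set membership, scaling and set C changed results most; values are log2, and the cause was not tested. Of the members only miR-29c-3p was called as reported, in MI+CIH against sham, where it passed under 9 of 13 alternatives beside leaving out single libraries (log2 change -3.05 to -0.50, adjusted p 0.00325 to 0.694) and in every leave-one-out fit (-2.06 to -1.46, adjusted p 0.00730 to 0.0455). The number of members called there, 1 of 5 as reported, was 3 by TMM, DESeq2 and without set C, 2 by median of ratios, and 0 with no filter (miR-29c-3p adjusted p 0.0567), with the set term, with the set term and median of ratios, and in set A alone. Of all 360 entries these fits called 204 as reported, 114 by TMM, 146 by DESeq2, 238 without set C, 112 by median of ratios, 0 with either set term and 2 in set A alone; with no filter 135 of all entries tested were called. Against CIH the number in MI+CIH hearts was 1 in place of 0 by median of ratios, TMM, DESeq2, the replicate block and without set C, where 97, 90, 133, 211 and 245 of 360 entries were called, against 205 as reported. In MI+CIH against sham DESeq2 and TMM added miR-29a-5p and miR-29c-5p, and median of ratios added miR-29a-5p.

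Most reversals were of members that did not pass, small against their error. In MI+CIH against MI, miR-29a-3p and miR-29c-5p turned negative by median of ratios (-0.28 and -0.27), TMM (-0.30 and -0.28), the set term with median of ratios (-0.22 and -0.25), edgeR (-0.10 and -0.20), DESeq2 (-0.17 and -0.20) and without sham 1 and MI 2 (-0.063 and -0.13). There miR-29c-5p was at -0.053 in set B alone and miR-29c-3p at 0.029 in set A alone. In MI against sham, miR-29a-3p and miR-29c-5p turned negative by median of ratios (-0.63 and -0.66), TMM (-0.83 and -0.86), the set term (-0.30 and -0.61), that term with median of ratios (-0.21 and -0.53) and in set A alone (-0.46 and -0.70). miR-29c-5p did so with edgeR (-0.89) and DESeq2 (-0.74), and miR-29a-3p without set C (-0.42). In MI+CIH against sham they turned negative by median of ratios (-0.91 and -0.93), TMM (-1.13 and -1.14), the set term (-0.20 and -0.55), that term with median of ratios (-0.43 and -0.78), set A alone (-0.039 and -0.46) and edgeR (-0.012 and -1.10). miR-29c-5p was at -0.94 with DESeq2, miR-29a-3p at -0.30 without set C, and miR-29b-3p at 0.36 in set A alone. Against CIH, miR-29c-3p of MI+CIH hearts was at 0.052 with the set term and 0.21 in set A alone.

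The arm ratio of miR-29c in MI+CIH against sham lost its call with the set term (-0.11), in set A alone (-0.038) and without sham 1 and MI 2 (-2.05). It turned positive with the set term and in set A alone in MI against sham (0.24 and 0.17), MI+CIH against CIH (0.30 and 0.37) and the interaction (0.051 and 0.20), and in the interaction without sham 1 and MI 2 (0.18). The miR-29a ratio turned positive in CIH against sham without sham 1 and MI 2 (0.12) and in the interaction at a pseudocount of 5 RPM (0.20).

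Leaving out each library in turn gave, for miR-29a-3p, -0.27 to 0.90 in MI+CIH against MI and -0.42 to 0.75 in MI against sham, and for miR-29c-5p in MI+CIH against MI -0.13 to 0.37. For the miR-29a arm ratio it gave -0.36 to 0.17 in CIH against sham, -0.40 to 0.20 in the interaction and -0.47 to 0.12 in MI+CIH against MI. For the miR-29c arm ratio it gave -0.73 to 0.094 in CIH against sham, -0.79 to 0.38 in the interaction, -2.62 to -1.86 in MI+CIH against sham and -2.34 to -1.46 in MI+CIH against CIH, where it passed without MI+CIH 1 (-2.21, adjusted p 0.0389, limma).

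Replicate numbers did not pair the libraries: deviations of 25 same-numbered pairs had r of -0.711 to 0.867 with a median of -0.014. The replicate block leaves MI+CIH 6 and 7, which have no partner, out of the contrasts in effect. Under it miR-29a-3p was at -0.77, miR-29a-5p at -0.059 and miR-29b-3p at -0.33 in MI+CIH against MI, miR-29a-3p at -0.30 and miR-29c-3p at -2.33 (adjusted p 0.00531, limma) in MI+CIH against sham, and the miR-29a arm ratio at 0.060 in CIH against sham. In MI+CIH against sham the block called 218 of all 360 entries. Depth limits miR-29c-3p in set B, where 1 to 66 reads stand behind its values.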
